A study of Homo sapiens with 8 samples.

Results

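Oligosaccharyltransferase (OST) is the enzyme of the endoplasmic reticulum (ER) that transfers a preassembled sugar chain from a lipid carrier, dolichol, to asparagine residues of proteins as they enter the ER. Its transcripts were followed in LNCaP cells, an established human prostate carcinoma line derived from a metastasis. The genes were chosen by name as 10 OST subunits (STT3A, STT3B, RPN1, RPN2, DDOST, DAD1, OSTC, KRTCAP2, MAGT1 and TUSC3), and all 10 were found among the 36474 genes counted and passed the filter on low counts. All cells were first starved in medium without serum or calcium. ASPN (asporin, a secreted extracellular protein) was then given as recombinant human protein at 100 ng/mL. RNA was taken at 0 h (2 libraries), 12 h (3 libraries) and 24 h (3 libraries) of treatment. The 0 h cells had thus already been starved but had spent no time with ASPN. No culture kept in that medium for 12 or 24 h without ASPN was analysed here, so time in the starvation medium and time with ASPN cannot be told apart in any comparison. Libraries held 73406825 to 96962135 counts. The replicates were wells plated in parallel, so p-values measure the spread between wells of 1 cell line.

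In human cells OST exists in 2 forms built around alternative catalytic subunits. The form with STT3A sits at the Sec61 protein channel through OSTC and KRTCAP2 and glycosylates proteins while they are being translated. The form with STT3B carries an oxidoreductase subunit, either MAGT1 or TUSC3, and reaches sites that the first form skipped. RPN1, RPN2, DDOST and DAD1 are shared by both forms, as are the small subunits TMEM258 and OST4, which were followed beside the 10. Prostate epithelium secretes large amounts of glycoprotein, prostate-specific antigen among them.

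The labelled cell type was checked first. All 9 markers of luminal prostate epithelium were present in every library, from TMPRSS2 at 42.2 to 56.4 CPM (counts scaled to library size) to FOLH1 at 1660 to 1980 CPM. Of the markers of other cells, DCN, PTPRC, CD3E, PECAM1 and CDH5 did not exceed 0.0724 CPM in any library, LUM, PDGFRB and CD68 did not exceed 1.83 CPM, and COL1A1 (18.9 to 21.3 CPM) and VWF (11.2 to 17.3 CPM) were counted at a low level.

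Promoter sequence is shown for members that behaved differently, OSTC and MAGT1, whose transcripts fell most, and DAD1, whose change did not pass the test. ER stress genes are known to carry the ER stress response element, CCAAT and CCACG with 9 free bases between them, in their promoters, and HSPA5, which encodes the main ER chaperone, serves as the example. The stretches are RefSeq sequence of GRCh38.p14, 5′ to 3′, directly upstream of the gene, with the letters CCAAT and CCACG of either strand in capitals. They lie at chr4:108650349-108650584 (plus strand, OSTC), chrX:77895594-77895818 (minus strand, MAGT1), chr14:22589225-22589474 (minus strand, DAD1) and chr9:125241391-125241409 (minus strand, the element of HSPA5).
OSTC: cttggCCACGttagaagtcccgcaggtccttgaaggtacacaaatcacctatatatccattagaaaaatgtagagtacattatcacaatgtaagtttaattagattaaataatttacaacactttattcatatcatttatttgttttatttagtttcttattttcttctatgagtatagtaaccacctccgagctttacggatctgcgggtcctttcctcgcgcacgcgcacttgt
MAGT1: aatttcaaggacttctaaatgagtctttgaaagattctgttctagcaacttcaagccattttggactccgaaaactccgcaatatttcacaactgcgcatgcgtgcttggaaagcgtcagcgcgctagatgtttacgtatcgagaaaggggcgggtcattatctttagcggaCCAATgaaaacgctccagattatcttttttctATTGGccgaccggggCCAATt
DAD1: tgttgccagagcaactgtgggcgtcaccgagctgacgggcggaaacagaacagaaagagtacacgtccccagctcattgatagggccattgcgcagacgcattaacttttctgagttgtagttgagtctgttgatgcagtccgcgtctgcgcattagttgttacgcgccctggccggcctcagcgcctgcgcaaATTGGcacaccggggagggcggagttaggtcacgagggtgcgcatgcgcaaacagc
HSPA5: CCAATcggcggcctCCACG

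RefSeq promoters (250 bases before to 50 after the start) were at hand for 7 of the 10 members: STT3A, RPN2, DDOST, DAD1, OSTC, KRTCAP2 and MAGT1. None of the 7 held the ER stress response element on either strand, which 27 of 35116 promoters (0.0769%) held. None held the second form of the element, ATTGG and CCACG with 1 free base between them (0.0541% of promoters), the unfolded protein response element TGACGTGG (0.729%), the C/EBP-ATF response element TGATGNAA (3.62%) or the cAMP response element TGACGTCA (1.85%). The CCAAT letters alone, which overlap both forms of the element, were found in 5 of the 7 (DAD1, DDOST, KRTCAP2, MAGT1 and STT3A) and in 34.6% of all promoters. The CCACG letters alone, which overlap the same elements and the unfolded protein response element, were found in 2 of the 7 (DDOST and OSTC) and in 38.1%. Elements this rare would be absent from most sets of 7 promoters, so their absence says little about these members. Members were counted per gene and the shares per promoter. These are matches of letters in 1 window per start site. A match does not show that a factor binds, and its absence does not show that none binds.

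Levels were compared between subunits as CPM per kb of the MANE Select transcript, the reference transcript agreed for each gene. At 0 h the order was RPN2 (269 ± 1.95 CPM per kb, SD, n = 2), RPN1 (251 ± 4.89), DAD1 (192 ± 0.765), DDOST (138 ± 1.53), OSTC (137 ± 9.68), STT3A (119 ± 3.98), STT3B (71.8 ± 4.90), MAGT1 (69.7 ± 6.18), TUSC3 (18.3 ± 0.246) and KRTCAP2 (5.21 ± 0.153). In this order the libraries of DDOST and OSTC overlapped, as did those of STT3B and MAGT1, and all other neighbours were separated. RPN2 and RPN1, the ribophorins shared by both forms, were thus the most abundant, and STT3A was above STT3B in every library. At 24 h STT3A (99.9 ± 1.85, SD, n = 3) and OSTC (99.6 ± 3.93) had changed places with overlapping libraries, and STT3B (60.7 ± 1.61) and MAGT1 (53.6 ± 1.80) no longer overlapped.

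**Figure D1:**
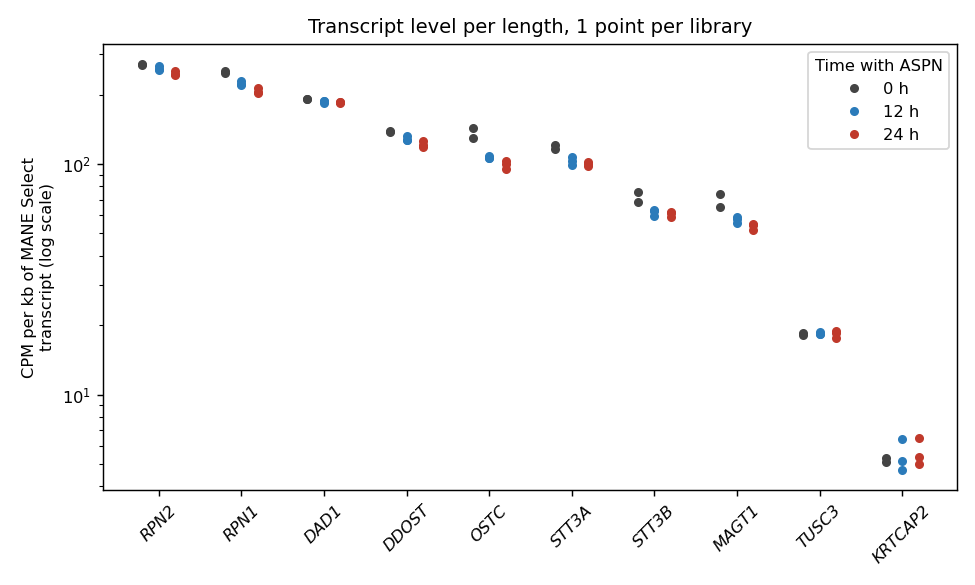
Level of the 10 subunit transcripts per length, as CPM per kb of the MANE Select transcript on a log axis, with 1 point per library and the time with ASPN in colour. RPN2 and RPN1 are highest, TUSC3 lies near 18 at every time, and KRTCAP2, 83.7% of whose reference bases also lie in another gene, is lowest.

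The level of KRTCAP2 is uncertain. It had 192 to 326 counts per library. Of the bases of its reference transcript, 83.7% also lie in exons of ENSG00000273088 on the same strand, which is not among the genes counted. How reads that fall in both genes were treated was not stated, so its level and its change cannot be read as those of the whole transcript. DDOST and RPN2 also share reference bases with another gene. DDOST shares 21.5% with PINK1-AS on the same strand, which held 4150 counts over the 8 libraries, and RPN2 shares 1.80% with MROH8 on the other strand. OSTC has 7 processed pseudogenes, 90.5% to 94.0% identical over the aligned part, which together held 66 counts over the 8 libraries, and a copy in a transcript of LIG3 that is 91.0% identical over 765 bases. LIG3 held 45167 counts against 79903 for OSTC, and how reads that match both were assigned was not stated, so the level of OSTC is uncertain to that extent. The small subunit gene OST4 shares 34.2% of its bases with AGBL5 on the other strand, which held 46194 counts against 31907 for OST4.

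Part of the subunit transcripts were lower after ASPN than at 0 h. After 12 h, 5 of the 10 transcripts (STT3A, STT3B, RPN1, OSTC and MAGT1) had fallen at an adjusted p of 0.05 by edgeR's quasi-likelihood test, and none had risen. The 12 h count was 2 (OSTC and MAGT1) when 0 h replicate 1 was left out. After 24 h the 5 had been joined by DDOST and RPN2, so that 7 of 10 were lower and none higher. The background was 6.75% of 21071 genes lower at 12 h and 8.49% at 24 h, and 4.85% and 7.82% higher. Most members are counted far more deeply than the average gene, and among the 1684 genes averaging 10000 normalized counts or more 18.2% were lower and 10.7% higher at 12 h, and 21.8% lower and 14.1% higher at 24 h. No member reached a 1.5-fold change, the threshold the study used, which 0.565% of genes passed downward and 0.489% upward at 12 h, and 1.35% downward and 1.1% upward at 24 h. The median log2 change of the 10 members was -0.13 at 12 h and -0.21 at 24 h, where that of all tested genes was -0.00069 and -0.0031. The summed level of the 10 transcripts was 2987 and 2873 CPM at 0 h, 2632, 2650 and 2613 CPM at 12 h, and 2455, 2557 and 2504 CPM at 24 h, so the 3 time points did not overlap. RPN2, RPN1 and STT3A weigh most in this sum, with means of 600, 573 and 534 CPM at 0 h. TUSC3 and KRTCAP2, with 67.6 and 2.73 CPM, hardly enter it. These are bulk libraries scaled to a common total, in which fewer cells with a transcript and less transcript per cell cannot be told apart.

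**Figure D2:**
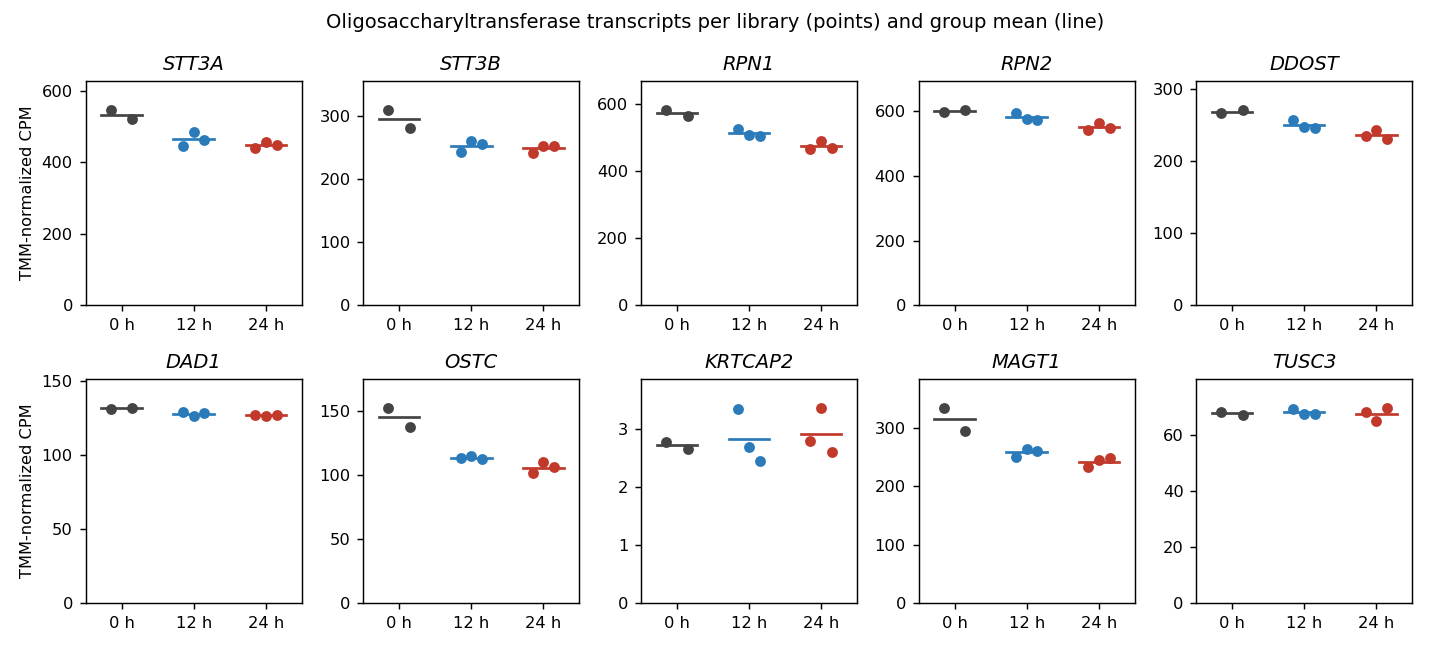
TMM-normalized CPM of each subunit in every library (points) with the group mean (line), on axes that start at 0 and differ between genes. The points of OSTC, MAGT1, STT3A, STT3B, RPN1, DDOST and RPN2 lie lower at 24 h than at 0 h in every library, DAD1 and TUSC3 differ little between the times, and KRTCAP2 spreads from 2.46 to 3.37 CPM with overlapping groups.

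Among the subunits particular to the STT3A form, OSTC changed most. OSTC (ENSG00000198856.13, chromosome 4, 108650585 to 108667820) links the STT3A form to the Sec61 channel. It stood at 152 and 138 CPM at 0 h, at 113, 115 and 113 CPM at 12 h, and at 102, 110 and 106 CPM at 24 h. The 3 time points did not overlap, and the time-0 libraries were further from each other than those at 12 h. It changed on the log2 scale by -0.35 at 12 h (SE 0.049, adjusted p 6.72e-06 by edgeR) and -0.46 at 24 h (SE 0.049, adjusted p 2.77e-08), a 1.37-fold decrease at 24 h. Both calls held in all 18 alternatives tried.

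STT3A (ENSG00000134910.14, chromosome 11, 125591712 to 125625215), the catalytic subunit that acts during translation, was at 546 and 521 CPM at 0 h. It was at 446, 485 and 464 CPM at 12 h and at 442, 458 and 449 CPM at 24 h. All treated libraries were below both time-0 libraries, and the 12 h and 24 h libraries overlapped. On the log2 scale it changed by -0.20 at 12 h (SE 0.044, adjusted p 0.00213 by edgeR) and -0.25 at 24 h (SE 0.044, adjusted p 8.43e-05). Without 0 h replicate 1, which leaves a single time-0 library assumed to vary like the others, the 12 h value was -0.16 and missed the threshold (adjusted p 0.0831, the highest of all alternatives).

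KRTCAP2 (ENSG00000163463.13, chromosome 1, 155169408 to 155173475) was at 2.78 and 2.67 CPM at 0 h, at 3.36, 2.69 and 2.46 CPM at 12 h, and at 2.80, 3.37 and 2.61 CPM at 24 h. The 3 groups overlapped. Log2 changes of 0.054 (SE 0.16) and 0.11 (SE 0.16) carried adjusted p values of 0.892 and 0.745 by edgeR, and their signs turned when single libraries were left out, so no direction can be given.

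In the STT3B form the catalytic subunit moved by a similar amount. STT3B (ENSG00000163527.10, chromosome 3, 31532638 to 31637616) was at 309 and 281 CPM at 0 h, at 243, 260 and 256 CPM at 12 h, and at 242, 253 and 253 CPM at 24 h. All treated libraries were below both time-0 libraries, and 12 h and 24 h overlapped. It changed on the log2 scale by -0.22 at 12 h (SE 0.047, adjusted p 0.0015 by edgeR) and -0.24 at 24 h (SE 0.047, adjusted p 0.000278). Without 0 h replicate 1, the higher of the time-0 libraries, the 12 h value was -0.15 (adjusted p 0.138, the highest of all alternatives).

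The alternative oxidoreductases of the STT3B form showed different values. MAGT1 (ENSG00000102158.21, chromosome X, 77825747 to 77895593), which is also known for a role in magnesium uptake, was at 334 and 295 CPM at 0 h. It was at 250, 264 and 261 CPM at 12 h and at 232, 245 and 248 CPM at 24 h, with no overlap between the time points. It changed on the log2 scale by -0.28 at 12 h (SE 0.049, adjusted p 0.000133 by edgeR) and -0.38 at 24 h (SE 0.049, adjusted p 6.11e-07), and both calls held in all 18 alternatives. TUSC3 (ENSG00000104723.21, chromosome 8) was at 68.2 and 66.9 CPM at 0 h, at 69.3, 67.5 and 67.5 CPM at 12 h, and at 68.1, 64.9 and 69.5 CPM at 24 h. Its 3 groups overlapped throughout. Log2 changes of 0.011 and -0.0014 (SE 0.050 each) had adjusted p values of 0.929 and 0.991 by edgeR, and the sign at 24 h turned under 11 of the 18 alternatives, RLE, upper-quartile and library-total scaling among them.

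The paralogs were therefore set against each other as count ratios within each library, which need no normalization. The MAGT1 to TUSC3 ratio was 4.90 and 4.40 at 0 h, 3.61, 3.92 and 3.86 at 12 h, and 3.41, 3.77 and 3.56 at 24 h. Every treated library lay below both time-0 libraries. The difference of mean log2 ratios was -0.29 at 12 h and -0.38 at 24 h, each with p = 0.1 in an exact two-sided permutation test (0.3 adjusted over 6 tests), which is the smallest p that 3 against 2 libraries allow. Between 24 h and 12 h the difference was -0.085 (exact permutation p = 0.2, adjusted 0.3). The STT3A to STT3B ratio was 1.77 and 1.86 at 0 h, 1.83, 1.86 and 1.81 at 12 h, and 1.83, 1.81 and 1.77 at 24 h, and the groups overlapped. Its log2 difference was 0.020 at 12 h and -0.0065 at 24 h (exact permutation p = 0.6 and 1), and the sign of both depended on which time-0 library was kept.

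**Figure D3:**
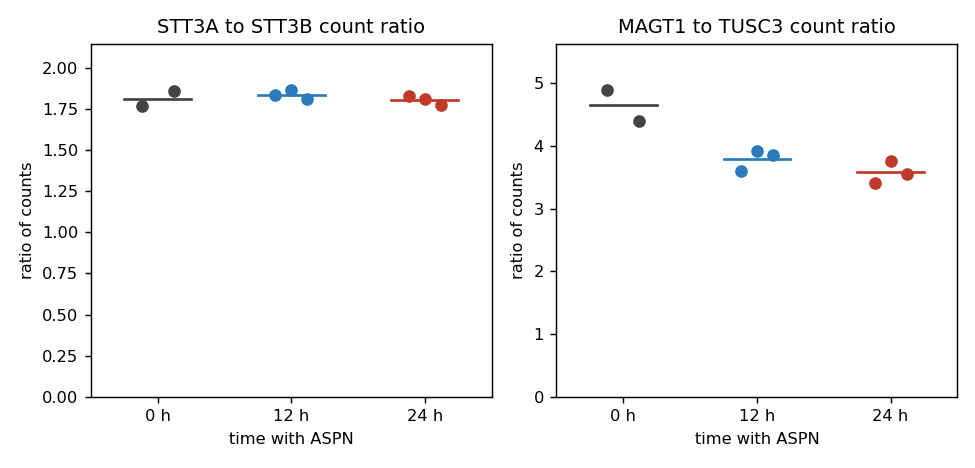
Ratio of STT3A to STT3B counts (left) and of MAGT1 to TUSC3 counts (right) in each library, with the group mean as a line and axes from 0. The STT3A to STT3B ratio stays between 1.77 and 1.86, and the MAGT1 to TUSC3 ratio is lower in every 12 h and 24 h library than at 0 h.

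Of the shared subunits, RPN1 changed most. RPN1 (ENSG00000163902.12, chromosome 3, 128619969 to 128681075), a ribophorin that helps present certain membrane proteins to the catalytic site, was at 581 and 565 CPM at 0 h. It was at 526, 506 and 504 CPM at 12 h and at 465, 490 and 470 CPM at 24 h, with no overlap between the time points. It changed on the log2 scale by -0.16 at 12 h (SE 0.042, adjusted p 0.00909 by edgeR) and -0.27 at 24 h (SE 0.042, adjusted p 1.44e-05). The 12 h call was lost without 0 h replicate 1 (-0.14, adjusted p 0.135, the highest of all alternatives) or without 12 h replicate 3 (-0.15, adjusted p 0.0551).

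DDOST (ENSG00000244038.11, chromosome 1, 20651767 to 20661544), a structural subunit named after the whole enzyme, was at 266 and 270 CPM at 0 h. It was at 257, 247 and 246 CPM at 12 h and at 234, 243 and 230 CPM at 24 h, with no overlap between the time points. The log2 change of -0.10 at 12 h (SE 0.044, adjusted p 0.145 by edgeR) did not pass, and that of -0.19 at 24 h did (SE 0.043, adjusted p 0.00249).

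RPN2 (ENSG00000118705.17, chromosome 20, 37178410 to 37241619), the other ribophorin, was at 597 and 603 CPM at 0 h, at 596, 577 and 572 CPM at 12 h, and at 542, 564 and 550 CPM at 24 h. The time points did not overlap, but 12 h replicate 1 lay close below the lower time-0 library. It changed on the log2 scale by -0.045 at 12 h (SE 0.041, adjusted p 0.564 by edgeR) and -0.12 at 24 h (SE 0.041, adjusted p 0.0402). The 24 h call was near the threshold and was lost in 10 of the 18 alternatives, with an adjusted p of up to 0.218.

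DAD1 (ENSG00000129562.11, chromosome 14, 22564907 to 22589224), a small subunit first named as a defender against apoptotic cell death, was at 131 and 132 CPM at 0 h. It was at 129, 126 and 128 CPM at 12 h and at 127, 126 and 127 CPM at 24 h. Every treated library was below both time-0 libraries, yet log2 changes of -0.041 and -0.050 (SE 0.044 each) did not pass the test (adjusted p 0.644 and 0.517 by edgeR).

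Of the small shared subunits outside the 10, TMEM258 had 80.7 and 83.9 CPM at 0 h, 86.3, 74.8 and 73.6 CPM at 12 h, and 71.1, 73.3 and 71.9 CPM at 24 h. It changed on the log2 scale by -0.073 at 12 h (adjusted p 0.482 by edgeR) and -0.19 at 24 h (SE 0.056, adjusted p 0.0159), and the 24 h call was lost without 0 h replicate 3, 24 h replicate 1 or 24 h replicate 3 (adjusted p 0.0571 to 0.134). OST4 was at 44.9 and 46.4 CPM at 0 h and between 45.3 and 53.9 CPM later, with log2 changes of 0.088 and 0.046 (adjusted p 0.438 and 0.709 by edgeR).

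**Figure D4:**
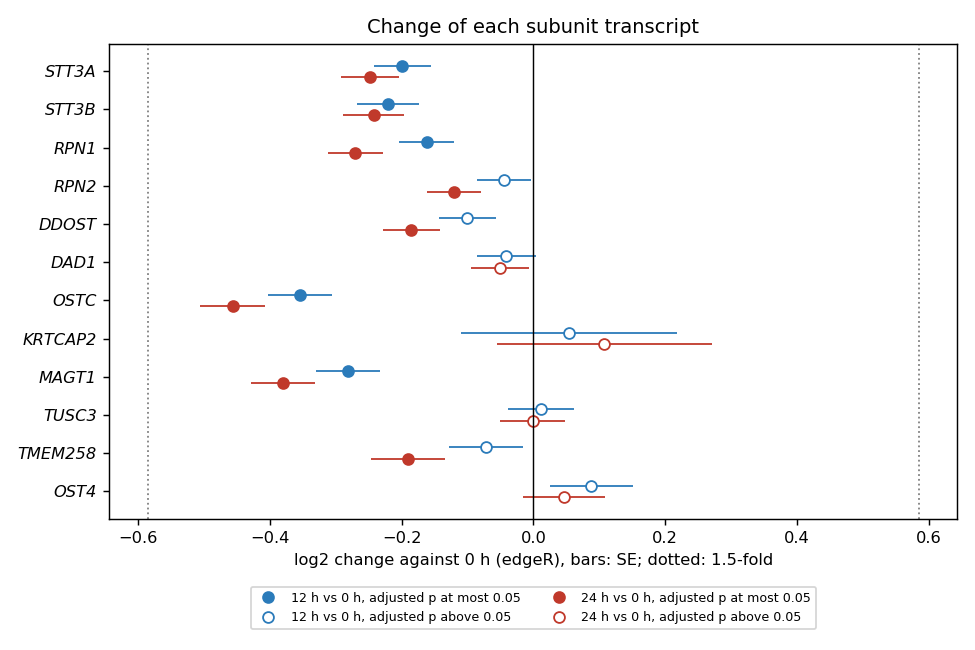
Log2 change of each subunit transcript at 12 h (blue) and 24 h (red) against 0 h with its SE, filled where the adjusted p was at most 0.05 and open where it was above, and with 1.5-fold marked by dotted lines. OSTC and MAGT1 lie furthest to the left at both times, TUSC3, DAD1, KRTCAP2 and OST4 are open at both, and no point reaches the dotted lines.

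Between 12 h and 24 h, 2 groups that had both received ASPN, no member passed the test by edgeR in either direction, where 1.61% of all genes were lower and 1.12% higher (6.71% and 3.44% of the deeply counted genes, and 0.104% and 0.0759% with a 1.5-fold change). DESeq2 found 1 member lower, RPN1. The median log2 change was -0.062. RPN1 (-0.11, SE 0.038, adjusted p 0.135), OSTC (-0.10, SE 0.044, adjusted p 0.283), MAGT1 (-0.098, SE 0.044, adjusted p 0.303), DDOST (-0.085, SE 0.039, adjusted p 0.322) and RPN2 (-0.075, SE 0.037, adjusted p 0.365) were the 5 members whose 24 h libraries all lay below the 12 h libraries, a pattern that 9.33% of genes showed (10.3% in the upward direction). These 5 were also the members with an unadjusted p under 0.05 in edgeR, which is a weak limit. The largest of the 5, that of RPN2 (0.0491), ranked only 2836 among the 21071 genes tested. Against 0 h, 8 of the 10 members had no overlap with the time-0 libraries and were lower, at 12 h and again at 24 h, where 19.6% and 21.7% of all genes did so (17.3% and 21.5% upward). The comparisons with 0 h share the same time-0 libraries.

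The rest of the N-glycosylation pathway was counted by list. In each list of this pathway the count of lower genes, at 12 h and at 24 h, varied when single libraries were left out. The background for these counts was 6.75% of all genes lower and 4.85% higher at 12 h. At 24 h it was 8.49% and 7.82%. Among the deeply counted genes 18.2% were lower and 10.7% higher at 12 h, and 21.8% and 14.1% at 24 h. The sugar chain is first built on dolichol. Of 14 genes of that assembly, 2 were lower at 12 h and none higher, and at 24 h 6 were lower and 3 higher, with medians of -0.123 and -0.125. Without 0 h replicate 1 none was lower at 12 h. ALG2, a mannosyltransferase of the early steps, went from 74.4 ± 2.14 CPM (SD, n = 2) to 63.9 ± 1.2 and 58.1 ± 3.67 CPM (SD, n = 3), a log2 change of -0.36 at 24 h (SE 0.053, adjusted p 7.44e-06 by edgeR). DPAGT1, which starts the chain, had -0.30 at 24 h (SE 0.059, adjusted p 0.00033). The 3 higher genes, named after their values were seen, were ALG3, ALG6 and ALG8, which add sugars inside the ER, with log2 changes of 0.21, 0.26 and 0.21 (adjusted p 0.00668, 0.0124 and 0.00783). None of the assembly genes was past the test upward without 0 h replicate 1.

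Of 19 genes that supply dolichol and activated sugars, 7 were lower at 12 h and 9 at 24 h, and none was higher (medians -0.15 and -0.16). Leaving out 0 h replicate 1 brought the count at 12 h to 3. GFPT1, the entry enzyme of the hexosamine pathway that feeds the first sugars of the chain, went from 353 ± 36.5 CPM (SD, n = 2) to 248 ± 9.75 and 216 ± 5.99 CPM (SD, n = 3), a log2 change of -0.71 at 24 h (SE 0.050, adjusted p 8.11e-12 by edgeR). GMPPB, which makes GDP-mannose, had -0.59 (SE 0.049, adjusted p 1.99e-10), and 25.3% of its reference bases are shared with other genes. GFPT1 passed the 1.5-fold threshold, as did GMPPB at 1.51-fold, but GMPPB was under it with library-total scaling, without 0 h replicate 3 or without 24 h replicate 1 (-0.57 each).

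Once transferred, the chain is trimmed and read by lectins of the ER. Of 19 such genes, 12 were lower at 12 h and 13 at 24 h, and none was higher (medians -0.21 and -0.18). The count at 12 h was 6 without 0 h replicate 1. EDEM1, which directs misfolded glycoproteins to degradation, went from 178 ± 11.7 CPM (SD, n = 2) to 140 ± 5.59 and 112 ± 7.33 CPM (SD, n = 3), a log2 change of -0.67 at 24 h (SE 0.053, adjusted p 6.46e-11 by edgeR). MCFD2, a partner of the cargo lectin LMAN1, had -0.61 (SE 0.048, adjusted p 7.05e-11).

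In the Golgi the directions were mixed. Of 14 genes of N-glycan processing there, 4 were lower and 3 higher at 12 h, and 4 were lower and 4 higher at 24 h (medians -0.087 and 0.025). B4GALT1 and MAN1A2, a galactosyltransferase and a mannosidase, had log2 changes of -0.32 and -0.36 at 24 h (SE 0.044 and 0.052, adjusted p 1.74e-06 and 6.04e-06 by edgeR). MAN1A1, named after its values were seen, had -0.73 at 12 h (adjusted p 9.96e-07 by edgeR), a 1.66-fold decrease, and -0.37 at 24 h (adjusted p 0.00209). Between 24 h and 12 h it rose by 0.36 (adjusted p 0.0061). Its 24 h value ranged from -0.53 to -0.17 when single libraries were left out. The 4 higher genes at 24 h, named after their values were seen, were ST6GAL1 (0.52), MAN2A2 (0.29), MGAT5 (0.28) and MGAT4B (0.26), with adjusted p values of 0.000545, 0.00082, 7.23e-05 and 0.000388 in this order. ST6GAL1 adds terminal sialic acid, and MGAT5 and MGAT4B start additional branches of the chain. Without 0 h replicate 1, 2 Golgi genes were higher at 24 h and none at 12 h.

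The nearest neighbours of OST in the ER membrane and lumen gave larger values than OST at 24 h, as medians set side by side with no test of the difference. A list of 10 genes held the Sec61 channel, the associated TRAP complex and SEC62, SEC63 and TRAM1. Of these 10, 8 were lower at 12 h and 8 at 24 h (medians -0.28 and -0.42). At 24 h SEC61A1 was at -0.46 (SE 0.040, adjusted p 4.02e-10 by edgeR) and SSR3 at -0.55 (SE 0.049, adjusted p 8.82e-10). Of 14 ER chaperone and ER-associated degradation genes, 13 were lower at 12 h and 14 at 24 h (medians -0.31 and -0.64). The 12 h counts of both lists varied when single libraries were left out. At 24 h 8 of the 14 chaperone and degradation genes were lower by at least 1.5-fold, where 1.35% of all genes were. HSPA5 and HERPUD1 had log2 changes of -0.77 and -0.81 at 24 h (SE 0.044 and 0.049). Between 24 h and 12 h 1.61% of all genes were lower, and 6.71% of the deeply counted genes. In that comparison 12 of these 14 genes were lower, 5 of the 19 trimming genes and 4 of the 19 supply genes. So were 3 of the 10 genes of the list with Sec61 and TRAP, and none of the OST subunits. These counts depended on single libraries. They were 8, 1, 2 and 0 in this order without 24 h replicate 1, and 10, 3, 2 and 1 without 12 h replicate 3.

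**Figure D5:**
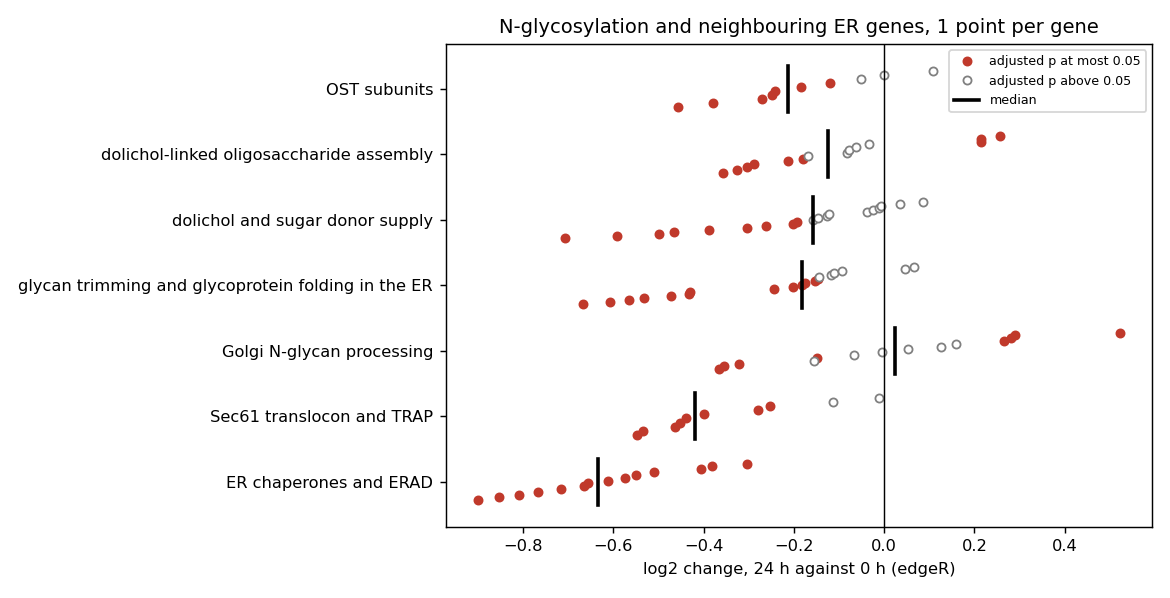
Log2 change between 24 h and 0 h of the OST subunits and of 6 lists of N-glycosylation and neighbouring ER genes, 1 point per gene, filled where the adjusted p was at most 0.05, with the list median as a bar. The OST subunits spread around a median of -0.21, the ER chaperones lie furthest to the left with a median of -0.64, and the Golgi list holds genes on both sides of 0.

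The genes whose pattern over the 8 libraries was most like the mean of the standardized subunit levels were ATG13 (Pearson r 0.992), BUD31 (0.99), INPP5K (0.989), TUBE1 (0.986), GADD45A (0.986), ZFAND2A (0.985), MID2 (0.985) and COPB2 (0.985), of 13454 genes compared. COPB2 is a coat subunit of vesicles between Golgi and ER, and ATG13 acts at the start of autophagy. Their log2 changes at 24 h ran from -0.17 (MID2) to -0.88 (GADD45A), a direction that the choice by likeness fixed. The call of MID2 (adjusted p 0.0388 by edgeR) held in 9 of 18 alternatives, with an adjusted p of up to 0.272. The points share the 3 time points, so the values describe likeness over time and not a link. Among the subunits, the correlation of each with the mean of the others ran from 0.826 (STT3B) to 0.983 (RPN1) for 8 of them and was -0.085 for TUSC3 and -0.16 for KRTCAP2.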

How the data were processed

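The members, gene lists and tests were chosen with earlier results of these data known. The authors deposited unnormalized counts of reads for each gene. The authors trimmed paired-end reads with Cutadapt, aligned them to GRCh38 with STAR and counted them with featureCounts against GENCODE genes, and they left out a time-0 library for quality reasons. Strand and multi-overlap options were not stated. Labels number the time-0 samples 1 and 2 but the columns 1 and 3. The latter column was taken as a time-0 library with no pairing number and is called 0 h replicate 3. Of the 36474 genes, 30996 had the same versioned identifier in GENCODE release 44, all with equal coordinates. The rest were not covered by that check. Among them, MAGT1 differed from release 44 in version and coordinates, and RPN2 in version only.

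The test was the robust quasi-likelihood F test of edgeR 4.0.16 (R 4.3.3) on all 8 libraries, with TMM scaling and a separate term for each time, after filterByExpr. Of 36474 genes, 21071 were tested, and p values were adjusted over all of them (Benjamini-Hochberg). Genes passed at 0.05, and a call in the text means passing at 0.05. The 1.5-fold threshold was added only where it is named. CPM are TMM-normalized, and log2 CPM used a prior count of 2. SE were derived from the fold change and F statistic. The procedure was also run on counts simulated with the spread fitted to these 8 libraries, a check of the code and not of that spread. DESeq2 1.42.0 was an alternative.

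A count of 0 allows up to 0.0309 to 0.0409 CPM (3 counts), and such limits cover counting error only. Replicate pairs differed by more than sampling noise (chi-square per degree of freedom 5.32 to 15.2). Named genes were the members, TMEM258, OST4, the 2 genes of each list with the smallest p between 24 h and 0 h, and the 8 genes most like the members' mean level. Copies were sought with blastn (at least 90% identity, 25% of the reference transcript).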

Additional observations from a re-analysis of the deposited data

How the results depend on the processing

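Of 540 alternative values of the members (18 alternatives each), 506 kept direction and side of the threshold. Without 0 h replicate 1 the members lower at 12 h fell to 2, so leaving out single libraries gave 2 to 5. This leaves 1 time-0 library, assumed to vary like the other groups. At 24 h the count ranged from 5 to 7. Between 24 h and 12 h, DESeq2 and the replicate block each gave 1 member lower (RPN1). The cause of these changes was not tested. The replicate numbers share only a number (correlations of same-numbered 12 h and 24 h libraries 0.102, 0.0271 and 0.0292), and the block left out the unnumbered time-0 library. Under the block the adjusted p at 24 h was 0.0542 for DDOST, 0.218 for RPN2 and 0.449 for TMEM258, GMPPB at 24 h was -0.56, TMEM258 at 12 h was 0.030, ALG6 at 12 h was -0.084 and TUSC3 at 24 h was 0.011. TUSC3 at 24 h was also above 0 with RLE (0.0013), upper-quartile (0.0046) or total scaling (0.018), without the filter (0.0039), in DESeq2 (0.0017), with only both time points fitted (0.00157) and with thinned counts (0.00653).

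Leaving out single libraries gave log2 values on both sides of 0 for genes that had not passed the test in that comparison. At 12 h these were KRTCAP2 (-0.074 to 0.15) and ALG6 (-0.038 to 0.093). At 24 h they were TUSC3 (-0.023 to 0.028) and KRTCAP2 (-0.0070 to 0.18). Between 24 h and 12 h they were STT3B (-0.055 to 0.00027), TUSC3 (-0.034 to 0.0085), KRTCAP2 (-0.069 to 0.18), OST4 (-0.090 to 0.034) and MAN1A2 (-0.069 to 0.013). The log2 STT3A to STT3B ratio ranged from -0.015 to 0.056 at 12 h and from -0.042 to 0.029 at 24 h. The median log2 change of all genes lay within 0.0251 of 0 under each scaling tried.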
